A study of Mus musculus with 2 samples.

Results

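The genes described here encode the AP-1 transcription factors Fos, Fosb, Fosl2, Jun, Junb, Jund, Atf3 and Batf. They were taken by gene symbol, and all 8 were found among the 31253 genes of the files. The study used 10x Genomics 3′ v3.1 single-cell RNA sequencing on mouse thymocytes enriched by beads against CD25, a surface protein of early thymocytes and regulatory T cells. There was 1 library from WT mice and 1 library from mice labelled SETDBf/fCD4-Cre, called cKO here. In cKO a floxed SETDB gene meets Cre driven by the Cd4 promoter, and the label leaves unstated which one, Setdb1 or Setdb2, is floxed. The age of the mice and the number of animals behind each library are not given in the sources used here. Both libraries share the tissue, the bead enrichment and the chemistry.

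AP-1 factors are basic leucine zipper proteins that bind DNA as pairs. Jun proteins pair with each other or with Fos proteins, whereas Fos proteins need a Jun partner, and Batf and Atf3 pair with Jun proteins. In T cells the kinases downstream of the T cell receptor switch on Fos and Jun within minutes, and AP-1 joins NFAT on the promoters of activation genes. Batf, which lacks a transactivation domain of its own, binds together with Jun proteins and IRF4 and is known for its role in effector regulatory T cells. Fos, Fosb, Jun, Junb and Atf3 are also immediate early genes that tissue dissociation can induce before the cells are lysed, so a level measured here can hold both sources.

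The 120 bases before the RefSeq start of 3 members are printed because these members carry matches to elements that AP-1 family and related factors are known to bind, and because Jun and Batf carried the differences described below. Capitals mark the motif matches, the sequences are on the strand of the gene, and the build is GRCm38.p6.
Fos, chr12:85473770-85473889, plus strand: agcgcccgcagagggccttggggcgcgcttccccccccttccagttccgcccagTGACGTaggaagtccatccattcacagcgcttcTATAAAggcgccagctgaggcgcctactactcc
Jun, chr4:95052223-95052342, minus strand: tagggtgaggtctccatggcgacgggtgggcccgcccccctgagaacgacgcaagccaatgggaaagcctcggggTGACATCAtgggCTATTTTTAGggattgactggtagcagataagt
Batf, chr12:85686600-85686719, plus strand: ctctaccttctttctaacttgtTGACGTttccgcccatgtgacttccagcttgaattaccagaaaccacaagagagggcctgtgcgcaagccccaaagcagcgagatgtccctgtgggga
All 8 members matched the RefSeq promoter table, whose windows run from 250 bases before to 50 bases after a start, and each motif was searched on both strands of the whole window. The Jun match TGACATCA, a variant AP-1 element, lay 45 to 38 bases before the start, beside a match to the MEF2 site 33 to 24 bases before it. TGACATCA was present in 1 of the 8 member windows and in 3.62% of all 32851 windows. The MEF2 site was present in 2 member windows, Jun and Atf3, and in 3.19% of all windows. TGACGT, the core of the cyclic AMP response element, was present in 3 member windows, Fos, Batf and, on the opposite strand, Atf3, against 7.51% of all windows. TATAAA, present in 13.6% of all windows, was found in the windows of Fos and Junb. The full element TGACGTCA, which contains TGACGT, was in 1.79% of all windows, the AP-1 element TGANTCA in 7.81% and the CArG box of serum response factor in 1.63%, and no member window held any of the 3. These matches describe letters in the reference, and no binding was measured.

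The WT file had 89370968 UMIs over 7852 barcodes and the cKO file 76668166 over 8461, and 13 barcodes of kept cells occurred in both. Filtering kept 6989 WT cells, at a median depth of 7700 UMIs, and 7372 cKO cells, at 4653 UMIs. Mitochondrial genes took a median of 4.48% of UMIs in each library. Cells were assigned to thymocyte stages by gates on marker UMIs that used no AP-1 gene, and 5407 WT and 5865 cKO cells fell in these stages. That number includes Foxp3-positive cells without egress genes, whose 35 WT and 12 cKO cells were too few to compare. The 10 gates with at least 50 cells in each library were compared. They are listed roughly from early to late, but the Foxp3-positive, mature conventional and innate effector gates are separate branches rather than successive stages. Early double-negative (DN) cells held 376 WT and 268 cKO cells, DN3 cells 743 and 432, cycling Cd8-low cells 861 and 712, cycling Cd8-positive cells 467 and 411, and resting double-positive (DP) cells 2016 and 3018. Post-selection cells numbered 105 and 165, agonist-signalled cells 292 and 330, Foxp3-positive cells with egress genes 261 and 282, mature conventional cells 59 and 79, and innate effector cells 192 and 156. Gate names rest on RNA markers alone. The innate effector gate still held the immature genes Dntt, at 909 CPM (UMIs per 1000000 UMIs of the gate) in WT and 564 CPM in cKO, and Rag1, at 213 and 155 CPM, so it is a mixture. Setdb1, one candidate for the floxed gene, stood between 18.7 and 45.7 CPM in WT against between 22.7 and 35.6 CPM in cKO over the gates, but 3′ tags outside the deleted part remain countable, so the loss of the gene was not checked by these levels. Dntt, Cd3e and Trbc2, thymocyte genes that no gate used, were detected in each of the 10 gates of both libraries. The gates for B cells and for myeloid or stromal cells also took in thymocytes, with Dntt above 1000 CPM in both libraries, and are not described.

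A level is given as CPM with a 95% exact Poisson interval, and a ratio of cKO to WT with its 95% exact binomial interval. With 1 library per genotype there are no replicates and no test between genotypes was possible. The intervals cover counting error only, and leave out differences between mice, enrichments, captures and cells. They treat UMIs as independent and are too narrow where a gene's UMIs are spread unevenly over cells. With each cell thinned to 2000 UMIs, variance over mean was 4.3 in WT and 2.42 in cKO for Jun in Foxp3-positive cells. It was 3.53 and 1.77 for Junb in mature conventional cells, and 1.26 and 0.964 for Batf in Foxp3-positive cells. Summed over the compared gates and the Foxp3-positive cells without egress genes, the members ranged from Jund, at 648 CPM in WT against 677 CPM in cKO, through Junb (366 and 333.5 CPM), Jun (246 and 255 CPM), Fos (117 and 124 CPM), Fosb (51.3 and 51.8 CPM), Batf (16.7 and 14.3 CPM) and Fosl2 (6.13 and 5.84 CPM) to Atf3 (1.49 and 1.51 CPM). These are levels of tagged 3′ ends, not scaled by gene length, and genes can differ in how well they are captured.

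**Figure D1:**
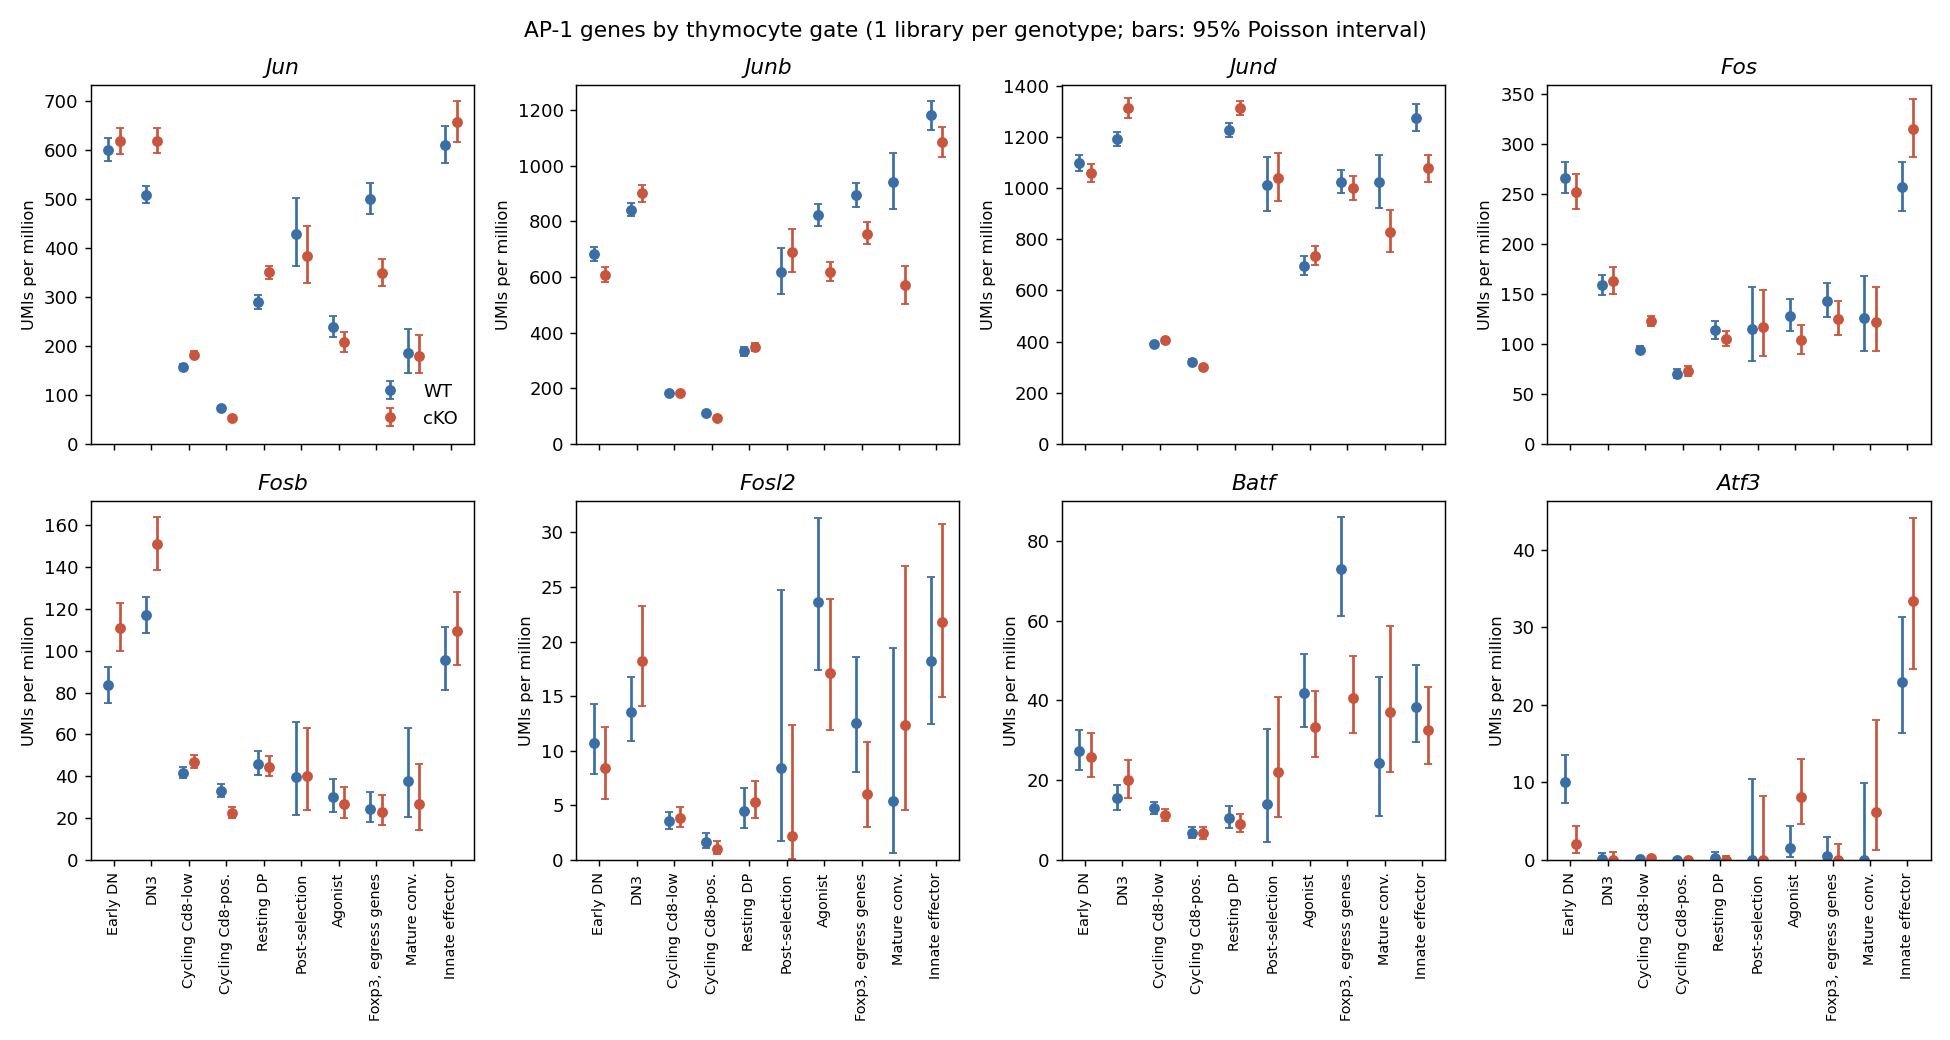
CPM of each AP-1 gene (vertical axes, UMIs per 1000000 UMIs, from 0) in 10 thymocyte gates (horizontal axes) in the WT (blue) and cKO (red) library, with bars for the 95% Poisson interval. Most members stood lowest in cycling Cd8-positive cells, Fosb peaked in DN3, Batf in Foxp3-positive cells, and Atf3 lay at or near 0 outside early DN, agonist, mature and innate effector cells.

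Among the Jun partners, Jun, the founding member of the family, was high in the DN and innate effector gates and low in dividing and mature conventional cells. Its WT levels were 599 CPM in early DN, 508 in DN3, 157.5 in cycling Cd8-low, 73.0 in cycling Cd8-positive and 289 CPM in resting DP cells. They were 428 CPM in post-selection, 238 in agonist, 499 in Foxp3-positive, 186 in mature conventional and 609.5 CPM in innate effector cells. In cKO the levels were, in the same order of gates, 617, 618, 182, 53.2 and 350 CPM and then 383, 208, 349, 180 and 656.5 CPM. Jun was thus lowest in cycling Cd8-positive cells and highest in innate effector cells of both libraries, an 8.35-fold span in WT and a 12.3-fold span in cKO. From post-selection to mature conventional cells the Jun level was lower, with a ratio of 0.434 (0.322 to 0.580) in WT and 0.468 (0.358 to 0.609) in cKO.

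Junb, a Jun protein that can restrain Jun and is needed for effector programs, had another pattern after selection. Its WT levels were 683, 842, 184, 110 and 332 CPM from early DN to resting DP cells and 617, 823.5, 894, 942 and 1181 CPM from post-selection to innate effector cells. In cKO they were 607.5, 900, 185, 93.9 and 348 CPM and then 691.5, 619, 756, 570 and 1085 CPM. Both libraries had the same high and low ends, but in WT the Junb value was higher at each gate in the listed order from post-selection on. The middle steps were not resolved: WT intervals were 784.5 to 864 CPM in agonist, 852 to 937 in Foxp3-positive and 846 to 1046 CPM in mature cells. In cKO, agonist and mature cells stood below post-selection cells, with an interval that included 1 for agonist cells (0.896, 0.790 to 1.02). The ratio of mature conventional to post-selection cells was 1.53 (1.29 to 1.82) in WT and 0.824 (0.698 to 0.972) in cKO. DN3 cells stood above resting DP cells by 2.53-fold (2.40 to 2.67) in WT and 2.59-fold (2.46 to 2.73) in cKO, and post-selection cells above resting DP cells by 1.86-fold (1.61 to 2.14) and 1.99-fold (1.76 to 2.24). The ratio of early DN to DN3 cells was 0.811 (0.775 to 0.848) in WT against 0.675 (0.638 to 0.714) in cKO, and that of cycling Cd8-positive to resting DP cells 0.330 (0.308 to 0.353) against 0.270 (0.252 to 0.290).

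Jund, the Jun protein known for steady expression in resting cells, varied least between non-dividing gates. Its WT levels were 1097, 1192, 390, 321 and 1227 CPM from early DN to resting DP cells and 1011, 697, 1025, 1022 and 1275 CPM from post-selection to innate effector cells. In cKO they were 1059, 1312, 404, 300.1 and 1313 CPM and then 1039, 735, 1000, 830 and 1077 CPM. The low values were in the cycling gates and in agonist cells, and the highest in WT innate effector cells and cKO resting DP cells. Jund also marked resting DP cells most broadly: after thinning each cell to 2000 UMIs, 90.6% of WT and 89.8% of cKO DP cells held a Jund UMI, against 34.2% and 34.8% for Jun and 41.2% and 39.6% for Junb. Thinning left out 435 WT and 1029 cKO DP cells below that depth, and without thinning the Jund shares were 93.3% and 91.2%.

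The low CPM of dividing cells does not mean few molecules per cell. Cycling Cd8-positive cells held a median of 31055 UMIs in WT and 29225 in cKO, against 2476 and 2243.5 in resting DP cells. A cycling Cd8-positive WT cell held on average 10.0 Jund, 3.42 Junb and 2.28 Jun UMIs, and a resting DP WT cell 3.40, 0.921 and 0.801. In cKO the same means were 8.99, 2.81 and 1.59 UMIs against 3.27, 0.866 and 0.871. The order of these 2 gates therefore turned with the scale for all 3 Jun genes: lower per 1000000 UMIs and higher per cell in dividing cells. UMIs per cell also move with cell size and capture, and their part was not tested.

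Fos, the classical partner of Jun, was highest in early DN and innate effector cells. Its WT levels were 266, 159, 94.5, 70.1 and 114 CPM from early DN to resting DP cells and 115, 128.5, 143, 126.5 and 257 CPM from post-selection to innate effector cells. In cKO they were 252, 163, 123, 73.0 and 105 CPM and then 117.5, 104, 125, 122 and 315 CPM. Many of the gates lay close together: 6 of 9 neighbouring pairs in the WT order and 5 of 9 in the cKO order had overlapping intervals. Across the compared non-dividing gates from resting DP to mature conventional cells, Fos stayed between 104 and 143 CPM in both libraries.

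Fosb, a Fos relative, was highest in DN3 cells of both libraries, followed by innate effector and early DN cells. In WT the DN3 interval (109 to 125.5 CPM) overlapped that of innate effector cells (81.3 to 111 CPM). Its levels were 83.4 CPM in WT against 111 CPM in cKO early DN cells, and 117 and 151 CPM in DN3 cells. They were 41.5 and 46.9 CPM in cycling Cd8-low, 33.0 and 22.3 CPM in cycling Cd8-positive and 46.0 and 44.6 CPM in resting DP cells. After selection they lay at 39.4 and 39.9, 30.0 and 26.7, 24.5 and 23.1, and 37.7 and 26.8 CPM in post-selection, agonist, Foxp3-positive and mature cells, and at 95.4 and 109.6 CPM in innate effector cells. DN3 cells stood above resting DP cells by 2.54-fold (2.20 to 2.94) in WT and 3.39-fold (2.95 to 3.89) in cKO. Foxp3-positive cells stood below DP cells, with ratios of 0.532 (0.381 to 0.729) and 0.518 (0.366 to 0.715), the opposite of Jun in WT (1.73, 1.59 to 1.87) and of Junb in both (2.69, 2.52 to 2.87, and 2.18, 2.04 to 2.32).

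Fosl2, which encodes Fra-2, was scarce, with 379 WT and 305 cKO UMIs over the compared gates and the Foxp3-positive cells without egress genes. It lay between 1.65 CPM in cycling Cd8-positive and 23.6 CPM in agonist cells of WT, and between 0.975 CPM in cycling Cd8-positive and 21.8 CPM in innate effector cells of cKO. Intervals of neighbours in the order overlapped for 8 of 9 pairs in WT and 9 of 9 in cKO, so little of the order between adjacent gates was resolved at this depth.

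Batf, the partner of Jun proteins and IRF4, was highest in the Foxp3 gate. Its WT levels were 27.2, 15.4, 12.9, 6.72 and 10.55 CPM from early DN to resting DP cells, and 14.1, 41.8, 72.9, 24.2 and 38.3 CPM from post-selection to innate effector cells. In cKO they were 25.9, 19.9, 11.2, 6.66 and 9.05 CPM and then 22.2, 33.2, 40.6, 37.2 and 32.7 CPM. Foxp3-positive cells stood highest in both libraries, and above resting DP cells by 6.90-fold (5.06 to 9.53) in WT and 4.49-fold (3.19 to 6.34) in cKO. In cKO the Foxp3-positive cells did not stand apart from agonist cells (1.22, 0.866 to 1.73) or mature cells (1.09, 0.647 to 1.95), while in WT the same ratios were 1.74 (1.32 to 2.31) and 3.01 (1.54 to 6.72). The mature values rest on 9 WT and 18 cKO UMIs.

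Atf3, a stress-responsive member, was found in few cells. In innate effector cells 39 WT and 49 cKO UMIs (23.0 and 33.4 CPM) lay in 14 and 15 cells. Of these cells 78.6% in WT and 86.7% in cKO also held a UMI of Tyrobp or Fcer1g, adaptor genes of innate cells, against 11.2% and 17.0% of the gate's other cells. In early DN cells the Atf3-holding cells numbered 13 and 6, with Tyrobp or Fcer1g in 61.5% and 66.7% of them, against 16.5% and 19.8% of the others. Atf3 cells were deeper, with medians of 9602.5 and 13674 UMIs in the innate gate against 7873 and 8079 in its other cells, and the part of depth in these shares was not tested. In resting DP cells Atf3 had 1 UMI in WT and 0 in cKO.

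The members' mixture differed between gates. In resting DP cells Jund supplied 60.6% of all UMIs of the 8 genes in WT (59.7 to 61.5, Clopper-Pearson) and 60.4% in cKO (59.6 to 61.1), while Junb supplied 16.4% and 16.0%. In agonist cells the Junb share was 41.5% (40.0 to 43.0) in WT and 35.4% (33.8 to 37.0) in cKO, and the Jund share 35.1% and 42.0%. Junb thus exceeded Jund in WT agonist cells and lay below it in cKO. Mature conventional cells had Junb shares of 40.2% (36.9 to 43.5) and 31.9% (28.8 to 35.2), and Foxp3-positive cells had similar ones of 33.5% and 32.9%. Fos reached its largest shares in cycling Cd8-positive cells, at 11.4% in WT and 13.3% in cKO. The summed level of the 8 genes ran from 615 and 550.2 CPM there to 3497 and 3331 CPM in innate effector cells.

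**Figure D2:**
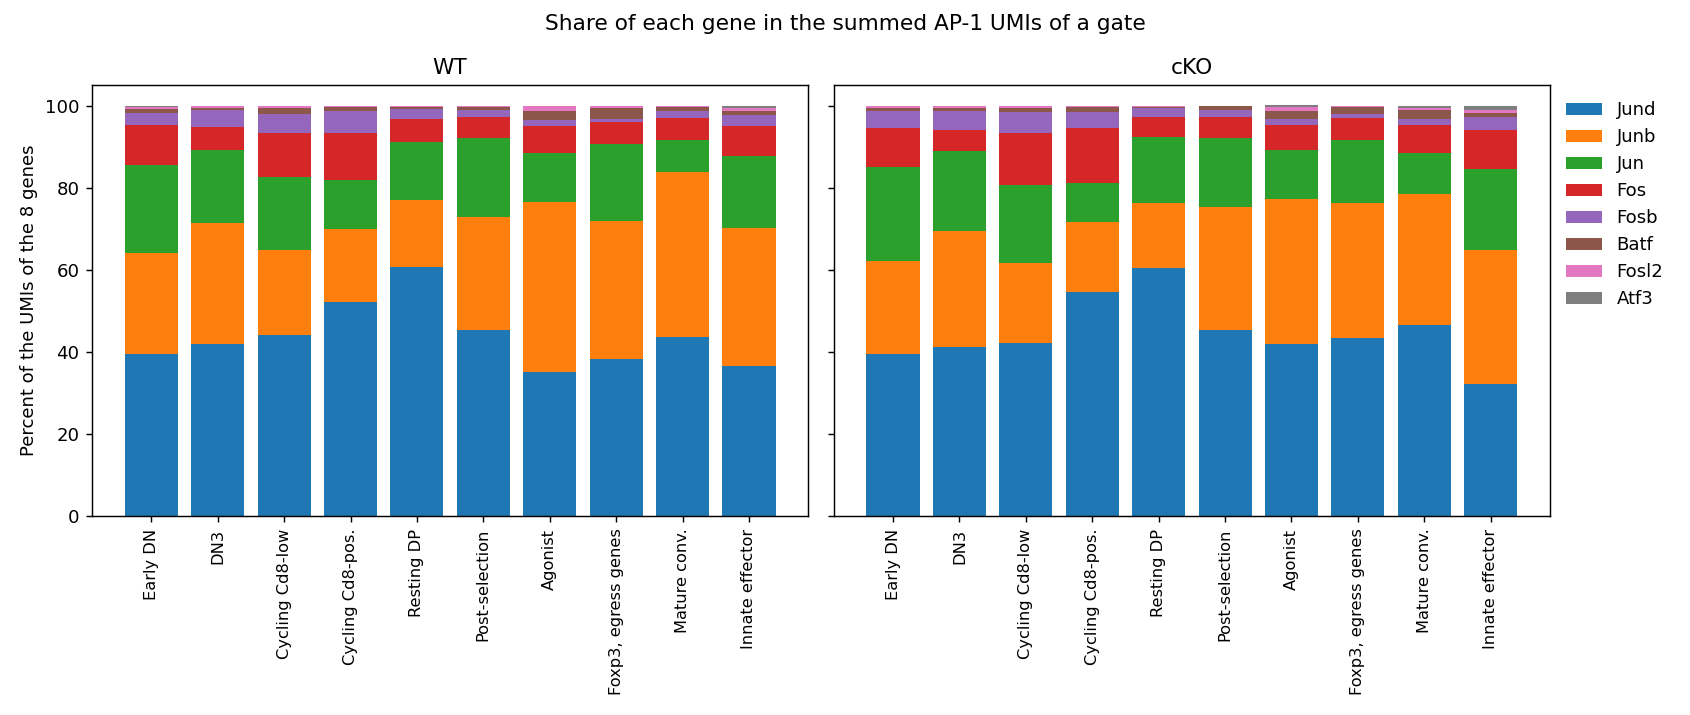
Share of each AP-1 gene in the summed UMIs of the 8 genes (vertical axis, percent, from 0) by gate (horizontal axis), with WT at left and cKO at right. Jund fills 60.6% and 60.4% of the resting DP column, and the Junb block is widest in WT agonist cells at 41.5%, against 35.4% in cKO.

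The next comparison asks how the AP-1 genes differed between cKO and WT at each stage. Of 80 pairs of member and gate, 64 had at least 50 UMIs over both libraries. Differences were mostly small: 3 of the 64 were at least 1.5-fold apart on the log2(CPM + 5) scale, all lower in cKO, and 0 were higher. The 3 were Batf in Foxp3-positive cells, where 2.96% of all genes with 50 UMIs were as much lower, Junb in mature conventional cells (background 3.76%) and Atf3 in early DN cells (background 1.41%). No member was higher by that rule in any gate. The background of higher genes was 0.455% in early DN, 0.627% in DN3, 0.324% in cycling Cd8-low, 0.227% in cycling Cd8-positive and 0.397% in resting DP cells. It was 5.09% in post-selection, 2.45% in agonist, 2.46% in Foxp3-positive, 4.31% in mature conventional and 2.75% in innate effector cells. The background of lower genes was 0.806% in DN3, 0.219% and 0.299% in the cycling gates, 0.322% in resting DP, 3.06% in post-selection, 1.12% in agonist and 3.97% in innate effector cells. Among the 64 pairs the ratio's interval excluded 1 with cKO higher in 12 and with cKO lower in 16. The share of all genes with such an interval was not computed, so these 2 counts have no background to be read against.

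**Figure D3:**
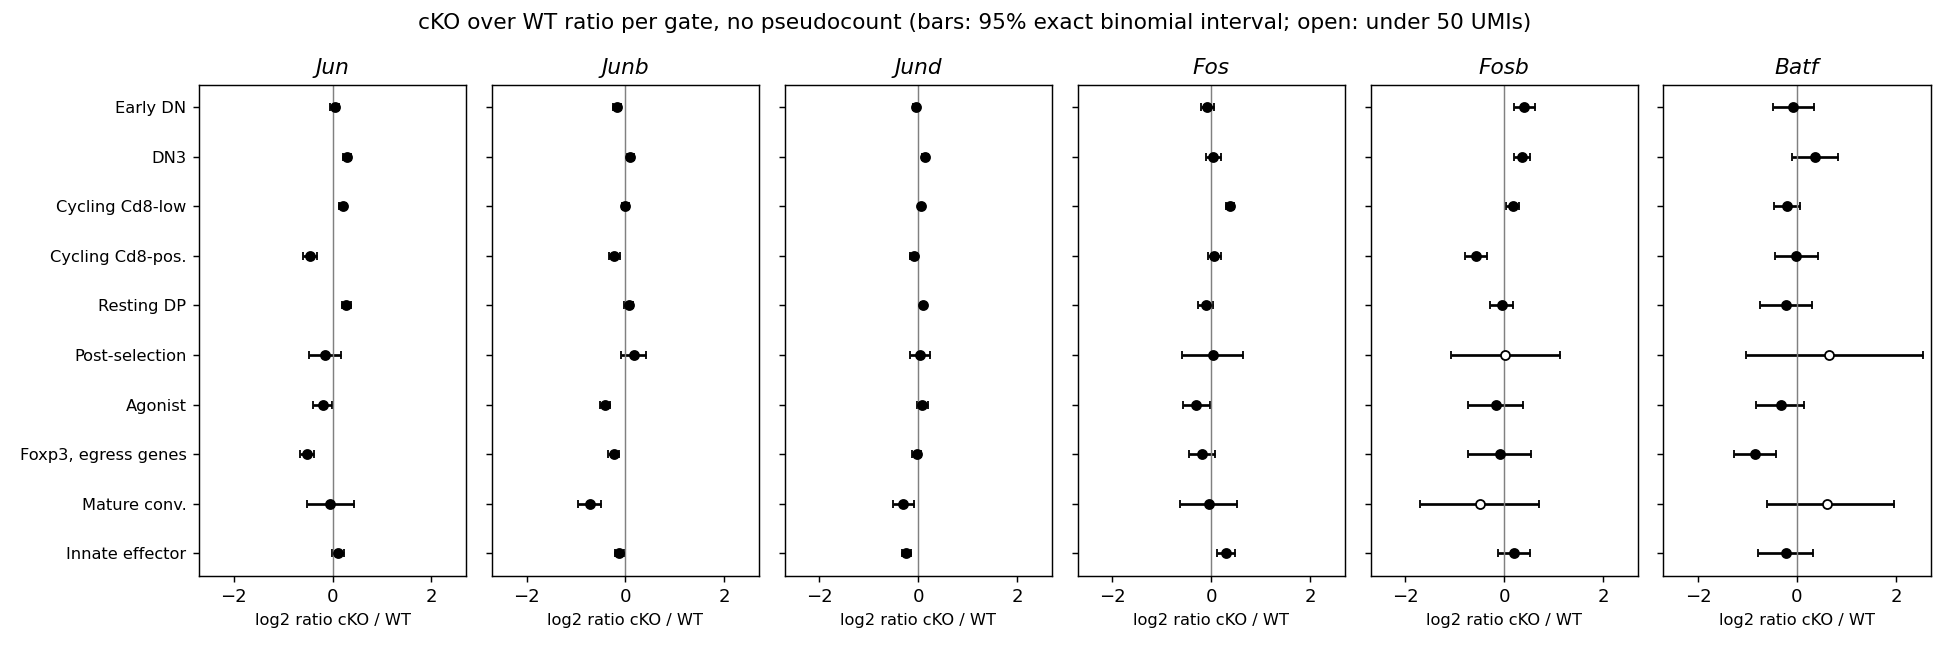
Log2 of the cKO to WT ratio (horizontal axes, no pseudocount, 0 means equal) for 6 AP-1 genes in 10 gates (rows), with bars for the 95% exact binomial interval and open circles under 50 UMIs. Jun lies right of 0 in DN3 and resting DP and left of it in cycling Cd8-positive and Foxp3-positive cells, and the Batf value of 40.6 against 72.9 CPM stands at the far left among filled circles.

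Foxp3-positive cells with egress genes are the regulatory T cells of this gating, and all 6 members with at least 50 UMIs lay below 0 there, with a median log2 fold of -0.21 against 0.01 over all genes. Batf stood at 72.9 CPM in WT (140 UMIs) against 40.6 CPM in cKO (74 UMIs), a ratio of 0.558 (0.415 to 0.744). Jun stood at 499 and 349 CPM (ratio 0.699, 0.631 to 0.773) and Junb at 894 and 756 CPM (0.846, 0.788 to 0.909). Jund, at 1025 and 1000 CPM (0.915 to 1.04), and Fos, at 143 and 125 CPM (0.731 to 1.05), had intervals that included 1. The part of the family that was lower in cKO was thus Batf, Jun and Junb.

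These values moved with the makeup of the gate. A UMI of the effector markers Klrg1, Il1rl1, Rora, Pglyrp1, Ccr6 or Ccr8 was present in 138 of 261 WT cells (52.9%) and 101 of 282 cKO cells (35.8%), and the summed level of these genes was 223 and 101 CPM, with Klrg1 at 11.97 and 0.549 CPM and Ccr8 at 5.21 and 0 CPM. Their part in the differences of the gate was not tested. Cells with at least 5 UMIs of cycling genes made up 6.90% and 4.61%. Without the effector or cycling cells, 118 WT and 174 cKO cells remained, and Batf stood at 45.8 and 39.0 CPM (0.853, 0.504 to 1.45). In the effector or cycling cells it stood at 85.5 and 42.2 CPM (0.493, 0.334 to 0.716). Jun kept its distance on both sides of this split: 728 and 415 CPM without these cells (0.570, 0.496 to 0.656) and 392.5 and 284.5 CPM within them (0.725, 0.622 to 0.843). Junb did so too, at 0.806 (0.725 to 0.896) and 0.804 (0.727 to 0.890). The split was chosen after the data were seen, and its 2 sides were not tested against each other.

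**Figure D4:**
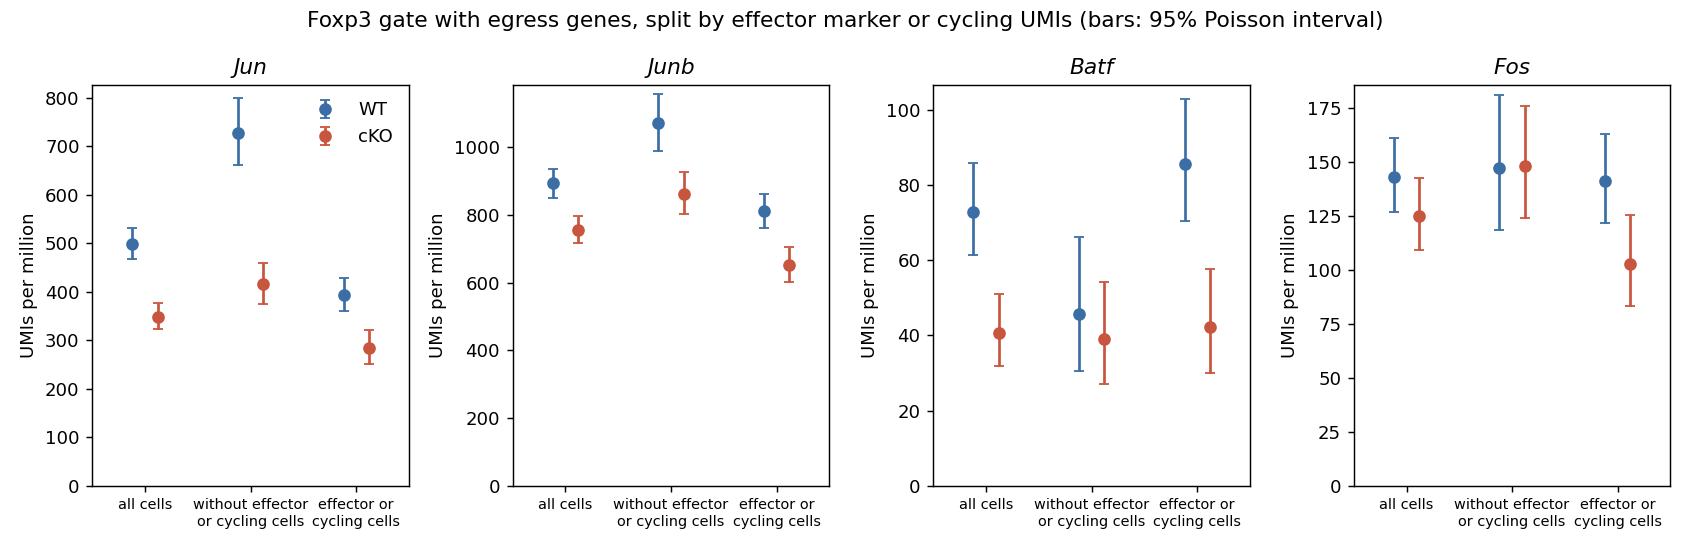
CPM of Jun, Junb, Batf and Fos (vertical axes, UMIs per 1000000 UMIs, from 0) in all Foxp3-positive cells with egress genes, in those without effector marker or cycling UMIs, and in those with them, for WT (blue) and cKO (red), with 95% Poisson intervals. WT and cKO bars of Batf overlap in the middle pair (45.8 and 39.0 CPM) and stand apart at right (85.5 and 42.2 CPM), while Jun stands apart in all 3.

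Per cell, a Batf UMI was found in 13% of WT (9.11 to 17.8) and 3.96% of cKO Foxp3-positive cells (1.99 to 6.97) after thinning to 2000 UMIs, at 13.8% and 11.3% after thinning to 3000, and at 26.4% and 17.7% without thinning, at median depths of 5655 and 5166 UMIs. The direction was the same at each depth and the size was not. Resting DP cells, where Batf is scarce, gave 2.02% and 1.76% at 2000 UMIs. A Jun UMI was found in 50.4% of WT (44.1 to 56.7) and 39.9% of cKO Foxp3-positive cells (34.1 to 45.9).

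Junb differed most between the libraries in conventional and agonist-signalled cells. In mature conventional cells it stood at 942 CPM in WT (350 UMIs in 59 cells) and 570 CPM in cKO (276 UMIs in 79 cells), a ratio of 0.605 (0.515 to 0.710). The cells with the most Junb held 24 and 11 UMIs, and without that cell in each library the levels were 877 and 547 CPM. In agonist cells Junb stood at 823.5 and 619 CPM (0.752, 0.698 to 0.810). Jund was lower in cKO mature cells, at 1022 and 830 CPM (0.811, 0.704 to 0.936), and not in agonist cells, at 697 and 735 CPM (0.980 to 1.14). Fos in agonist cells stood at 128.5 and 104 CPM (0.811, 0.672 to 0.977) and Jun at 238 and 208 CPM (0.872, 0.763 to 0.997). Of the 261 WT Fos UMIs, 24 lay in 1 cell, and without the top cell of each library the Fos levels were 117 and 101 CPM. After thinning to 2000 UMIs a Fos UMI was found in 16.9% of WT and 19.4% of cKO agonist cells, the other direction. The cKO agonist gate also held more RNA of immature cells, with Dntt at 141 and 224 CPM, Arpp21 at 66.0 and 112 CPM and Rag1 at 31.0 and 49.3 CPM, and their part in these differences was not tested. In agonist cells 6 of 7 members with 50 UMIs lay below 0, with a median of -0.29 against 0.01 over all genes. In mature cells 4 of 4 did, with a median of -0.18 against -0.01.

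In DN3 cells, most of which precede the known activity of CD4-Cre, the 7 members with 50 UMIs lay above 0, with a median of 0.28 against -0.04 over all genes. Of these Fos, at 0.036, was below 0 with a stricter cell filter and at -0.41 with cells thinned before gating. Junb and Batf were also below 0 with the stricter filter, at -0.059 and -0.010. In early DN cells 2 of 8 members lay above 0 (median -0.068 against -0.049 over all genes), and in cycling Cd8-positive cells 1 of 6 (median -0.15 against -0.0084). Jun stood at 508 and 618 CPM (1.22, 1.15 to 1.29), Fosb at 117 and 151 CPM (1.29, 1.15 to 1.44), Jund at 1192 and 1312 CPM (1.10, 1.06 to 1.14) and Junb at 842 and 900 CPM (1.07, 1.02 to 1.12). In resting DP cells Jun was again higher in cKO (289 and 350 CPM, 1.21, 1.14 to 1.29), Jund slightly so (1.07, 1.04 to 1.10), while the intervals of Junb, Fos, Fosb, Fosl2 and Batf included 1. At the reported settings the libraries thus differed in Jun by about as much in DN3 as in resting DP cells. Under other settings the log2 fold of Jun ran from 0.221 to 0.322 in DN3 and from 0.12 to 0.281 in resting DP cells. After thinning to 2000 UMIs, a Jun UMI was found in 53.0% of WT and 62.5% of cKO DN3 cells. In resting DP cells the shares were 34.2% and 34.8%, with 435 WT and 1029 cKO cells left out. The stage at which deletion had happened was not measured.

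The cycling gates split by Cd8. In cycling Cd8-low cells Fos stood at 94.5 CPM in WT against 123 CPM in cKO (1.30, 1.23 to 1.38), Jun at 157.5 and 182 CPM (1.16, 1.10 to 1.21) and Fosb at 41.5 and 46.9 CPM (1.13, 1.03 to 1.24). In cycling Cd8-positive cells Jun stood at 73.0 and 53.2 CPM (0.729, 0.660 to 0.804), Fosb at 33.0 and 22.3 CPM (0.677, 0.582 to 0.787) and Junb at 110 and 93.9 CPM (0.857, 0.794 to 0.925), while Fos stood at 70.1 and 73.0 CPM (0.95 to 1.14). At the reported settings Jun and Fosb were therefore higher in cKO on one side of the Cd8 border and lower on the other. For Jun the lower side depended on the processing. Its log2 fold in cycling Cd8-positive cells (-0.422) ran from -0.449 to 0.199 under other settings, and that of Fosb (-0.475) from -0.543 to -0.363.

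In innate effector cells Fos was higher in cKO at the reported settings (257 and 315 CPM, 1.23, 1.08 to 1.40). Its log2 fold (0.291) ran from -0.189 to 0.433 under other settings, so the direction depended on the processing. After thinning to 2000 UMIs, 30.0% of WT (23.6 to 37.1) and 32.3% of cKO cells (25.0 to 40.2) held a Fos UMI. Jund and Junb were lower in cKO innate effector cells, at 1275 and 1077 CPM (0.844, 0.791 to 0.901) and 1181 and 1085 CPM (0.919, 0.860 to 0.982). This gate also differed in Tyrobp (127 and 300 CPM) and Fcer1g (79.5 and 277 CPM), whose part was not tested. In early DN cells Fosb was higher in cKO, at 83.4 and 111 CPM (1.33, 1.15 to 1.54), and Junb lower, at 683 and 607.5 CPM (0.890, 0.840 to 0.942). The log2 fold of Fosb there (0.391) ran from 0.039 to 0.846 under other settings. A Fosb UMI was found in 12.3% of WT and 13.4% of cKO early DN cells after thinning to 2000 UMIs, and in 15.7% and 23.1% after thinning to 3000. Atf3 in early DN cells stood at 10.1 CPM in WT (44 UMIs) against 2.11 CPM in cKO (7 UMIs), a ratio of 0.209 (0.0796 to 0.468). Of the 44 UMIs, 23 lay in 2 cells, so the interval, which treats UMIs as independent, is too narrow. In agonist cells 14 of 16 cKO Atf3 UMIs lay in 1 cell, against 3 WT UMIs in 1 cell. In post-selection cells each member's interval included 1 or both libraries were at 0.

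Members were also detected together. Among DN3 cells thinned to 2000 UMIs, Fosb was found in 23.6% of WT cells with a Fos UMI and 16.1% of those without, and in 34.6% and 16.6% in cKO. In innate effector cells Jun was found in 64.9% of WT cells with a Fos UMI and 42.9% of those without, and in 30 of 50 and 45 of 105 such cells in cKO. In cycling Cd8-positive WT cells the Jun shares were 14.9% and 13.3%, so the pairing was not seen in each gate.

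Genes that dissociation can also induce were measured beside the members. A list of 12 heat-shock genes had a lower summed level in cKO in all 10 gates: 3721 CPM in WT against 3099 CPM in cKO in resting DP, 6976 and 5672 CPM in DN3, 8413 and 6227 CPM in agonist, 7844 and 5854 CPM in mature and 6287 and 4993 CPM in Foxp3-positive cells. Of its members Hsph1 stood at 58.8 and 24.7 CPM in Foxp3-positive cells, and the strongly inducible Hspa1a was at 0 UMIs there in both libraries. Hspa1a and Hspa1b stood at no more than 16.5 CPM in any gate of either library. The WT sum was largest in cycling Cd8-low cells, at 13820 CPM, where Hspa8 stood at 3898 CPM and Hsp90aa1 at 2454 CPM. How much of this sum was induced by dissociation was not tested. The AP-1 sum did not keep the direction of the heat-shock sum: it was 2022 and 2174 CPM in resting DP, 2846 and 3183 CPM in DN3, 1984 and 1751 CPM in agonist, 2344 and 1783 CPM in mature and 2672 and 2300 CPM in Foxp3-positive cells. A list of 19 other immediate early genes stood at 1712 and 1691 CPM, 1111 and 1159 CPM, 2442 and 2483 CPM, 1889 and 1907 CPM, and 3261 and 3061 CPM in the same gates. In Foxp3-positive cells 4 of its 16 genes with 50 UMIs were at least 1.5-fold lower in cKO, namely Nr4a2 (41.6 and 20.9 CPM), Nr4a3 (62.5 and 35.7 CPM), Socs3 (19.3 and 9.89 CPM) and Rhob (32.3 and 19.8 CPM), and 0 were higher. Among all genes with 50 UMIs in this gate, 2.96% were as much lower and 2.46% as much higher.

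**Figure D5:**
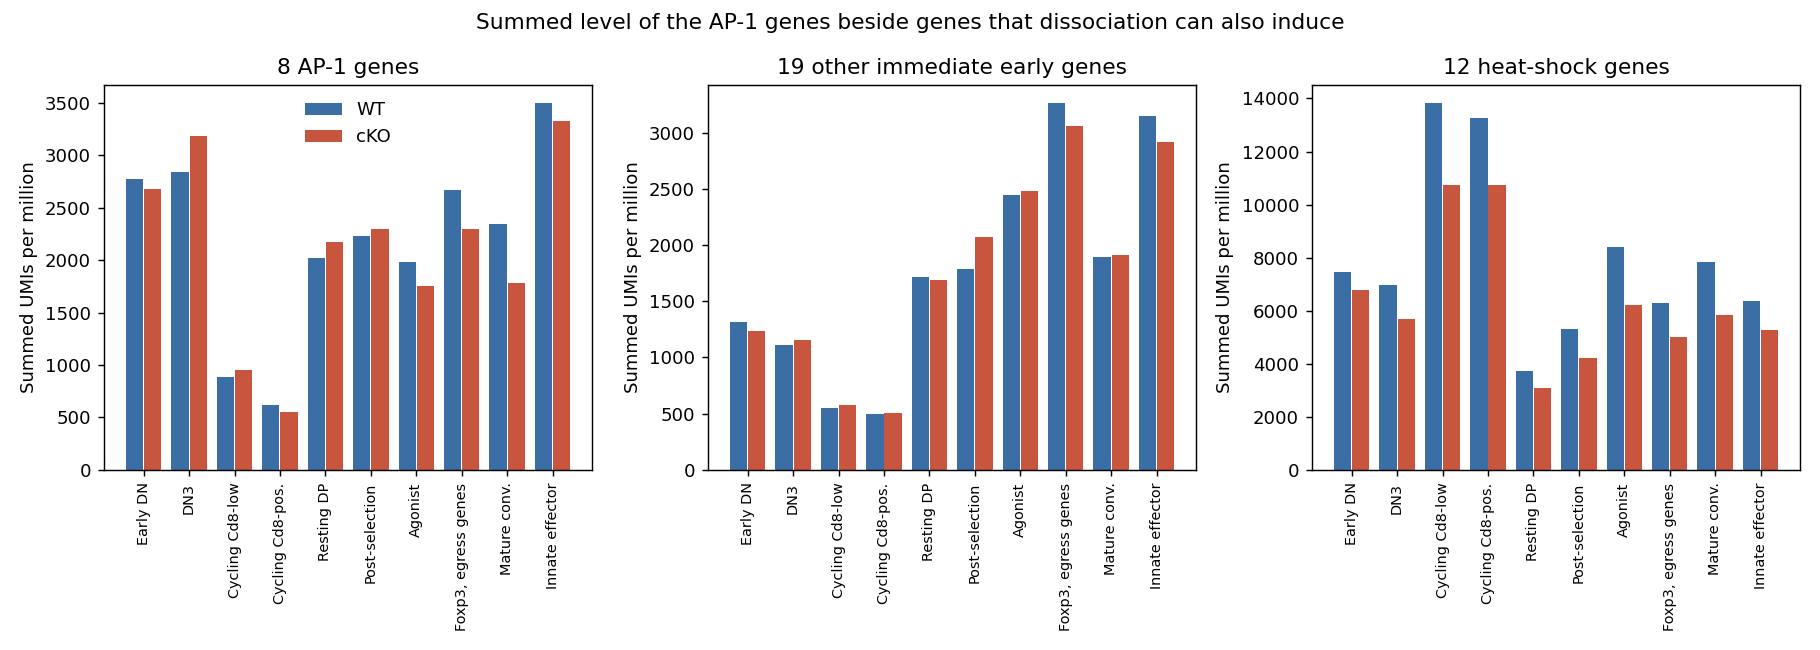
Summed CPM (vertical axes, UMIs per 1000000 UMIs, from 0) of the 8 AP-1 genes, 19 other immediate early genes and 12 heat-shock genes by gate (horizontal axes) in WT (blue) and cKO (red). The heat-shock bars are lower in cKO in all 10 gates, as in resting DP with 3721 and 3099 CPM, while the AP-1 bars are higher in cKO in DN3 and lower in Foxp3-positive cells.

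Cells with a Fos or Fosb UMI, after thinning to 2000 UMIs, carried more heat-shock RNA than the other cells in 6 of 20 combinations of gate and library, and more RNA of the other immediate early genes in 17 of 20. In DN3 cells the heat-shock level was 6507 CPM with and 6832 CPM without such a UMI in WT, and 5078 and 5583 CPM in cKO. The other immediate early genes were higher in these cells, at 1404 and 1143 CPM in WT against 1665 and 1004 CPM in cKO. In innate effector cells they stood at 4919 and 2565 CPM in WT against 3694 and 2237 CPM in cKO. By these counts, Fos and Fosb went with the other immediate early genes in more combinations than with the heat-shock genes. Dissociation can induce genes of both lists, and its part in the AP-1 levels was not tested.

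Other genes of the route to AP-1 were given by lists. Of 20 genes of the Ras, ERK, JNK and p38 kinase route, which phosphorylate Jun and induce Fos, 0 were 1.5-fold apart in the 9 gates other than mature conventional cells. Of 8 genes of dual-specificity phosphatases, which act on these kinases, Dusp2 was higher in cKO mature cells (253 and 384 CPM). Of 23 other bZIP genes, Crem was higher in cKO agonist cells (21.2 and 37.7 CPM), and in innate effector cells Bach2, a repressor that competes with AP-1, and Atf6 were higher (33.6 and 53.8 CPM, and 8.24 and 26.6 CPM) and Atf7 lower (44.75 and 27.9 CPM). From the same list Maf was lower in cKO Foxp3-positive cells (33.8 and 18.1 CPM) and Creb1 higher in mature cells (56.5 and 88.75 CPM). Of 5 NFAT and IRF partners Irf8 was higher in cKO agonist cells (25.6 and 44.8 CPM), and Irf4, the partner of Batf, lower (21.7 and 11.1 CPM). Among 4 of 5 matched genes of AP-1 turnover 0 were 1.5-fold apart in any gate. Among the SRF and ternary complex factor genes, of which 4 of 6 matched, Elk3 was higher in cKO post-selection cells (53.5 and 86.4 CPM). Atf6, Maf, Creb1, Irf4, Elk3, Socs3 and Rhob in these gates, and Ccl4, Ifng and Xcl1 of Foxp3-positive cells below, had under 100 UMIs and were named after their values were seen.

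Among 12 genes known as AP-1 and NFAT targets, the chemokine gene Xcl1 was lower in cKO in some gates and higher in others. It stood at 395 CPM in WT against 160.5 CPM in cKO agonist cells (0.407, 0.356 to 0.464), at 78.0 and 289 CPM in mature cells (3.70, 2.47 to 5.73) and at 68.3 and 580.2 CPM in innate effector cells (8.49, 6.99 to 10.4). Junb was lower in cKO in both the agonist and the mature gate (above), so the Junb and Xcl1 differences had the same sign in one and not in the other. In Foxp3-positive cells it stood at 29.2 and 14.8 CPM. The chemokine gene Ccl4 was lower in cKO agonist cells (20.2 and 10.1 CPM) and higher in mature cells (4 and 82 UMIs), and the interferon gene Ifng was higher in innate effector cells (7 and 54 UMIs). The intermediate filament gene Vim was higher in cKO cycling Cd8-low (93.2 and 152 CPM) and Cd8-positive cells (38.1 and 60.5 CPM), where Jun differed in opposite ways at the reported settings.

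By Pearson's r of log2(CPM + 5) over 20 points, 10 gates in each of 2 libraries, the genes most like each member were sought among 9248 genes. They were S100a11 for Fos (r = 0.935), Sytl1 for Fosb (0.952), Ebpl for Fosl2 (0.846), Dapp1 for Jun (0.914), Izumo4 and Egr1 for Junb (0.945 and 0.934), mt-Co1 for Jund (0.967) and Tgif1 for Batf (0.951). Among members Jun was most like Jund (0.864) and Fos (0.825), and Fosb and Batf showed little likeness (-0.03). The points share libraries and depth, and the same stage in both libraries is not independent, so these values describe likeness only.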

How the data were processed

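Per the file headers and the submitters' processing notes, the deposited values are raw counts of UMIs for each gene and barcode from Cell Ranger 6.1.1, and the notes also name CASAVA 1.8 and Seurat 4.0.3. For the genome build of the alignment the sources used here give no name, and sequences and coordinates come from the RefSeq promoter table on GRCm38.p6, matched by symbol. Cells with at least 500 genes, 1000 UMIs and at most 10% mitochondrial UMIs were kept, and doublets were removed with scrublet in scanpy 1.11.5 (expected rate 0.06, and the WT threshold used for both libraries because the automatic cKO threshold called 1 barcode). This took out 148 WT and 129 cKO barcodes. Library totals were 89370968 and 76668166 UMIs, so the precision of a level is set by the UMIs of its gate.

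Cells were gated on marker UMIs, the first matching gate taking the cell, and raw counts were summed per gate and library and scaled to 1000000 UMIs (CPM). A fold is the log2 difference, cKO minus WT, after adding 5 to each CPM, and a gene was called when at least 1.5-fold apart with at least 50 UMIs over both libraries. Poisson, binomial and Clopper-Pearson intervals are at 95% and cover counting error only. Shares of cells were taken after thinning each cell to 2000 UMIs. The code was checked on simulated counts. Python 3.11.15, numpy 2.4.6, scipy 1.17.1 and matplotlib 3.10.9 were used. All 8 members are named. Of each other list, genes with at least 100 UMIs and 1.5-fold apart could be named, at most 3 per list and gate. Such genes of the other immediate early and heat-shock lists are not all named outside Foxp3-positive cells. Likeness was sought among genes with at least 500 UMIs. The result of the kinase list in mature conventional cells is not reported here. The symbols Mkl1, Mkl2 and Rfwd2 matched no gene of the files. The members, lists and gates were chosen with earlier results of these data known. Alternatives were another pseudocount, cell filter, doublet handling, denominator, gate threshold, UMI minimum and thinning depth. Narrowed gates, removal of the cells highest in heat-shock UMIs and the split of the Foxp3 gate were added after seeing the data.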

Additional observations from a re-analysis of the deposited data

Results flagged for a closer look

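For 5 members the cKO to WT ratio lay on opposite sides of 1 in a pair of gates with both counting intervals excluding 1. The difference between the gates was not tested, since each genotype is 1 library. Jun stood at 1.22 in DN3 and 0.699 in Foxp3-positive cells. Junb stood at 1.07 in DN3 and 0.605 in mature conventional cells, and Jund at 1.10 and 0.811 in the same gates. Fos stood at 1.30 in cycling Cd8-low and 0.811 in agonist cells. In the agonist gate 24 of the 261 WT Fos UMIs lay in 1 cell, so that interval is too narrow. Fosb stood at 1.33 in early DN and 0.677 in cycling Cd8-positive cells, and its log2 fold in early DN cells (0.391) fell as low as 0.039 under other settings.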

How the results depend on the processing

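Of 1030 values of folds and stage ratios under other settings, 869 moved by less than their counting interval, 160 moved by more and 1 turned, and 71 had another sign than reported, 7 of these with a reported size of at least 0.2. Only values at least 1.5-fold apart as reported could be counted as turned, and the one was Fosl2 in Foxp3-positive over resting DP cells of WT (log2 -0.082 with cells thinned to 2000 UMIs before gating). The Jun fold in cycling Cd8-positive cells (-0.422) was smaller than that and reached 0.199. The Jun fold in Foxp3-positive cells (-0.51) was -0.71 with thinning, -0.76 as a mean of per-cell CPM and -0.80 without effector or cycling cells. The Batf fold (-0.77) was -0.21 without effector or cycling cells and from -0.56 to -0.84 otherwise, and with thinning it had too few UMIs for a value. The Junb fold in mature cells (-0.72) ran from -0.64 to -0.90, and the stricter cell filter left under 50 cells there. Members called higher (0) numbered 1 with raised gate thresholds, Fosb in early DN, and 3 with no UMI minimum. Members called lower (3) numbered 6 with thinning and 5 with no minimum. Genes of the lists called higher (17) numbered 11 with the stricter filter, 8 with thinning, 27 with a pseudocount of 1 and 48 with no minimum, and those called lower (24) 42, 14, 39 and 57. The share over all genes was not computed under these other settings, so these counts have no background to be read against. The log2 ratio of Junb in DN3 over resting DP cells (1.33 in WT, 1.36 in cKO) was 1.19 and 1.14 with the stricter filter, 1.55 and 1.67 with thinning, 1.48 and 1.52 as per-cell means, and 1.63 and 1.70 without mitochondrial and ribosomal genes in the denominator. The Batf share of Foxp3-positive cells was 26.4% in WT and 17.7% in cKO without thinning, and 11.3% in cKO at 3000 UMIs. The cause of these moves was not tested. No paired analysis was possible because each genotype has 1 library, and for the same reason no library could be left out. Depth limits Fosl2 and Atf3 in all gates and every member in post-selection and mature cells.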

Other observations

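Foxp3-positive cells without egress genes numbered 35 in WT and 12 in cKO, too few to compare. Batf stood at 151 CPM (108 to 205, 40 UMIs) in WT against 96.6 CPM (46.3 to 178, 10 UMIs) in cKO there, and Junb at 1329 CPM (1194 to 1475) against 869 CPM (699 to 1068).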
